A study of Homo sapiens with 4 samples.

Results

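The genes described here encode RNA-binding proteins that associate with ADAR, the RNA editing enzyme that turns adenosine into inosine within double-stranded transcripts. They were taken by name: ILF2, STRBP, ZFR, STAU1, STAU2, DHX9 and ELAVL1. All 7 were measured, out of 14232 genes with a single symbol in the platform annotation. Each of them had 1 transcript cluster, the array's gene-level unit.

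Total RNA of bulk cells was hybridised to 4 arrays, 1 for each cell line and arm. The groups were K562 with siRNA against ADAR1 (ADARkd), K562 with scrambled siRNA (SCR), HepG2 with siRNA against ADAR1 and HepG2 with scrambled siRNA. K562 is a chronic myeloid leukaemia line and HepG2 a hepatocellular carcinoma line. In every group the siRNA came from a stably transfected plasmid, so the SCR cells also carry one. The labels say that several siRNAs were tried and the most effective kept. They give neither the number of clones nor separate cultures.

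Most of these proteins bind double-stranded RNA. Double-stranded RNA-binding domains are found in DHX9, STRBP and the Staufen proteins, while ILF2, STRBP and ZFR share the DZF domain, through which ILF2 pairs with partners. ELAVL1, also called HuR, binds single-stranded AU-rich elements of mRNAs and stabilises them. Such proteins meet ADAR on the same transcripts, for instance on inverted Alu repeats, and some of them are known to alter editing or to unwind its substrates.

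The values are log2 intensities. A gene was kept in a line where its average log2 value reached the median level of the genes measured (5.28 for K562 and 5.31 for the arrays labelled HepG2), which left 7116 genes in each line. All 7 members were kept in both lines. Array medians were 36.1 to 36.7 in intensity on the arrays labelled HepG2 and at least as high in K562. Across genes, which are not replicates, ADARkd and SCR arrays correlated at r = 0.993 in K562 and 0.977 on the arrays labelled HepG2. The targeted transcript ADAR was 2.32-fold lower in ADARkd than in SCR for K562, at 6.78 against 7.99, and 3.23-fold lower on the arrays labelled HepG2, at 7.27 against 8.96. Of 18 measured hepatocyte markers only CPS1 and FOXA1 were kept on the arrays labelled HepG2. Albumin stood there at 2.97 in ADARkd and 3.04 in SCR, so these arrays are called labelled HepG2 throughout. Erythroid markers were kept for 8 of 10 genes in K562 and for 0 of 10 on the arrays labelled HepG2, and 0 of 10 lymphocyte markers were kept in either line. With 1 array per group, no difference between ADARkd and SCR within a line has a replicate check.

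On the deposited scale STRBP and DHX9 had the largest differences between ADARkd and SCR among the members on the arrays labelled HepG2. ILF2 was among the steadiest over the arrays. The promoters of these 3 genes are shown for that reason, as the 250 bases before the RefSeq gene start (build GRCh38.p14), 5′ to 3′ on the gene's strand. Capitals mark motifs that were searched on both strands and do not overlap in these windows. They are the GC box with the letters GGGCGG, the CCAAT box named by its letters, and the E-box with the letters CACGTG. An ETS core, CCGGAAG, was searched as well. So was the TATA box, spelled TATAAA.
STRBP, chr9:123268587-123268836, minus strand: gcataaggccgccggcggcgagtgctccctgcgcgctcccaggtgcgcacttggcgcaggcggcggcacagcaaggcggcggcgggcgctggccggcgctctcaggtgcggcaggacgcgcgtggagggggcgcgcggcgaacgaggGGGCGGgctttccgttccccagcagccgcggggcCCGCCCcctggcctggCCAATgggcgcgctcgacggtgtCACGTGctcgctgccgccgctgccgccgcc
DHX9, chr1:182839097-182839346, plus strand: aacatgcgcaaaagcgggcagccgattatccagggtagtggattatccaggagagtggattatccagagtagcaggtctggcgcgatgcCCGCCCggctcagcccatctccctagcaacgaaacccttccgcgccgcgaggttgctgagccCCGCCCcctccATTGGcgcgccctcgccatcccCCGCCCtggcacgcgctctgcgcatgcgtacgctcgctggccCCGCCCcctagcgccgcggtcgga
ILF2, chr1:153670994-153671243, minus strand: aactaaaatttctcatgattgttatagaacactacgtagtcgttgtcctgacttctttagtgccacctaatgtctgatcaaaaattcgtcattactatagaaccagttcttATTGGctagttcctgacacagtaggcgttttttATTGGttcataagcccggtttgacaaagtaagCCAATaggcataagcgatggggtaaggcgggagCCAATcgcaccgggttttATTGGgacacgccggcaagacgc
The STRBP window held 2 GC boxes, 1 CCAAT box and 1 E-box, and its GC content was 79.2%. In the DHX9 window there were 4 GC boxes and 1 CCAAT box, at a GC content of 67.6%. The ILF2 window had 5 CCAAT boxes and 0 GC boxes, at a GC content of 43.6%. Of 35116 RefSeq promoter windows of the same length, 42.6% held a GC box, 32% a CCAAT box, 6.34% an E-box, 8.52% an ETS core and 10.7% a TATA box. The median GC content was 58.0%. No ETS core or TATA box was found in these 3 windows. RefSeq promoters were matched for 5 members by symbol, which also included ZFR and STAU1. STAU1, the member with the narrowest range over the arrays, had 1 GC box and 2 ETS cores at a GC content of 61.2%. The ZFR window held none of the motifs searched, at a GC content of 77.2%. The motifs describe the windows alone.

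The first comparison set ADARkd against SCR on the arrays labelled HepG2, where ADAR was lowered most. STRBP and DHX9 were at least 1.5-fold higher in ADARkd, STAU2 had the lowest difference, and the other 4 members lay between -0.29 and 0.22 on the log2 scale. In all, 2 of 7 members were at least 1.5-fold higher, against 12.4% of the 7116 kept genes, and 0 were 1.5-fold lower, against 5.73%. No member was 2-fold apart in either direction, where 4.03% of kept genes were. Of those 287 genes 175 were higher and 112 lower in ADARkd, a split that was 124 and 140 after quantile normalization, and 132 were higher after cyclic loess. The median difference of the members was -0.09, and that of all kept genes 0.11. After quantile normalization these medians were -0.20 and 0.01, and after cyclic loess -0.26 and 0.01. A difference below 0 was found for 4 of 7 members and for 39.1% of all kept genes, and that share was 48.7% after quantile normalization and 49.2% after loess.

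STRBP, the spermatid perinuclear RNA-binding protein, stood at 6.30 in ADARkd and 5.54 in SCR, a log2 difference of 0.76 or 1.69-fold. Of all kept genes 93.5% had a smaller difference. DHX9, the RNA helicase that opens double-stranded RNA, stood at 9.04 in ADARkd and 8.32 in SCR, a difference of 0.72 or 1.65-fold. For DHX9, 92.6% of kept genes lay below. Both genes were inside the range from the 5th to the 95th percentile of kept genes, which ran from -0.63 to 0.82. The DHX9 difference was 0.60 after quantile normalization and 0.56 after cyclic loess, the last of which is under 1.5-fold. The STRBP difference was 0.69 and 0.66 in these settings. With log2(value + 16), it was 0.60, close to the 1.5-fold bound of 0.585, and that of DHX9 was 0.70.

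ILF2, a DZF protein also called NF45, was at 10.44 in ADARkd and 10.22 in SCR, a difference of 0.22. ZFR, the zinc finger member of the DZF family, was at 9.06 in ADARkd and 9.16 in SCR, a difference of -0.09. Among the 3 DZF genes only STRBP therefore passed 1.5-fold on these arrays.

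The Staufen proteins bind double-stranded stretches of mRNAs and act in their transport and decay. STAU1 was at 8.59 in ADARkd and 8.72 in SCR, a difference of -0.13. STAU2, the Staufen protein known for its part in neurons, was at 6.15 in ADARkd and 6.64 in SCR, a difference of -0.49 or 1.41-fold lower. Only 7.63% of kept genes lay below STAU2. The 2 Staufen genes thus both had lower values in ADARkd, by unequal amounts and by less than 1.5-fold. ELAVL1 was at 7.25 in ADARkd and 7.54 in SCR, a difference of -0.29, with 16% of kept genes below it. After quantile normalization the differences were -0.58 for STAU2, -0.42 for ELAVL1 and -0.29 for STAU1, all under 1.5-fold. After cyclic loess they were -0.57, -0.44 and -0.29, where that of DHX9 was 0.56.

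Fibroblast and stromal markers also differed between these 2 arrays. Of 13 measured, 8 were kept, 4 of them at least 2-fold lower in ADARkd (COL3A1, FN1, FAP and COL1A1). The ADARkd levels of COL3A1 (4.93), FAP (4.53) and COL1A1 (5.11) were under the filter level, so these 3 were kept through the SCR array alone. On the same arrays LUM (0.78) and DCN (0.64) were at least 1.5-fold higher. The summed intensity of the 13 was 2294 in ADARkd and 2316 in SCR. That of the hepatocyte markers was 1773 in ADARkd and 2160 in SCR, and that of the lymphocyte markers, none of which was kept, 152.5 and 150.5. Most of the hepatocyte sum came from CPS1 alone, at 10.56 in ADARkd and 10.89 in SCR on the log2 scale. The part of these markers in the members' differences was not tested. In bulk RNA, fewer cells holding a transcript and less of it per cell cannot be told apart.

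**Figure D1:**
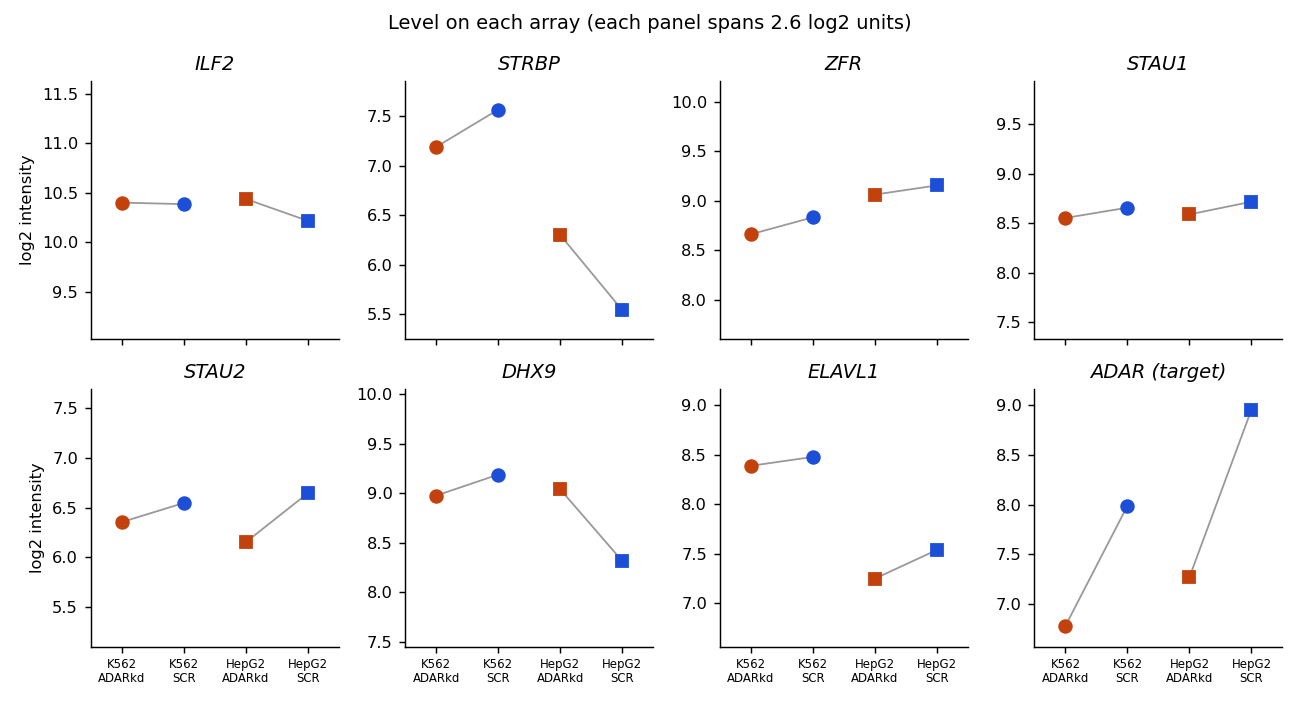
Level of each member and of the target ADAR on the 4 arrays, as log2 intensity (vertical axis; every panel covers the same span), with orange for ADARkd, blue for SCR, circles for K562 and squares for the arrays labelled HepG2; each point is 1 array, and grey lines join the arms of a line. STRBP and DHX9 are higher in ADARkd on the arrays labelled HepG2 and lower in ADARkd in K562, whereas STAU1, STAU2, ZFR and ELAVL1 are lower in ADARkd in both lines.

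In K562 the same comparison gave smaller values. ILF2 alone was not lower in ADARkd, and the 7 differences ran from -0.38 to 0.02. No member was 1.5-fold apart, against 1.03% of the 7116 kept genes, or 2-fold apart, against 0.155%. The members' median was -0.17 and that of kept genes -0.07. The members' median was -0.10 after quantile normalization and after loess, where that of kept genes was -0.001 and -0.019. Of all kept genes 66.7% had a difference below 0 here, against 6 of 7 members. That share was 50.3% after quantile normalization and 54.9% after loess.

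STRBP had the lowest difference, at 7.19 in K562 ADARkd and 7.57 in K562 SCR (-0.38 or 1.3-fold lower), with 4.99% of kept genes below it. DHX9 followed at 8.98 in ADARkd and 9.19 in SCR, a difference of -0.21, with 21.2% of kept genes below. These were the members with positive differences of over 0.7 on the arrays labelled HepG2.

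STAU2 was at 6.35 in ADARkd and 6.55 in SCR (-0.19), and STAU1 at 8.55 in ADARkd and 8.66 in SCR (-0.10). ZFR was at 8.66 in ADARkd and 8.83 in SCR (-0.17), ELAVL1 at 8.39 in ADARkd and 8.48 in SCR (-0.09), and ILF2 at 10.40 in ADARkd and 10.38 in SCR (0.02). Of all kept genes, between 24.3% (STAU2) and 69.9% (ILF2) lay below these 5 values. The ELAVL1 difference was 0.0007 after quantile normalization, which turns its sign.

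**Figure D2:**
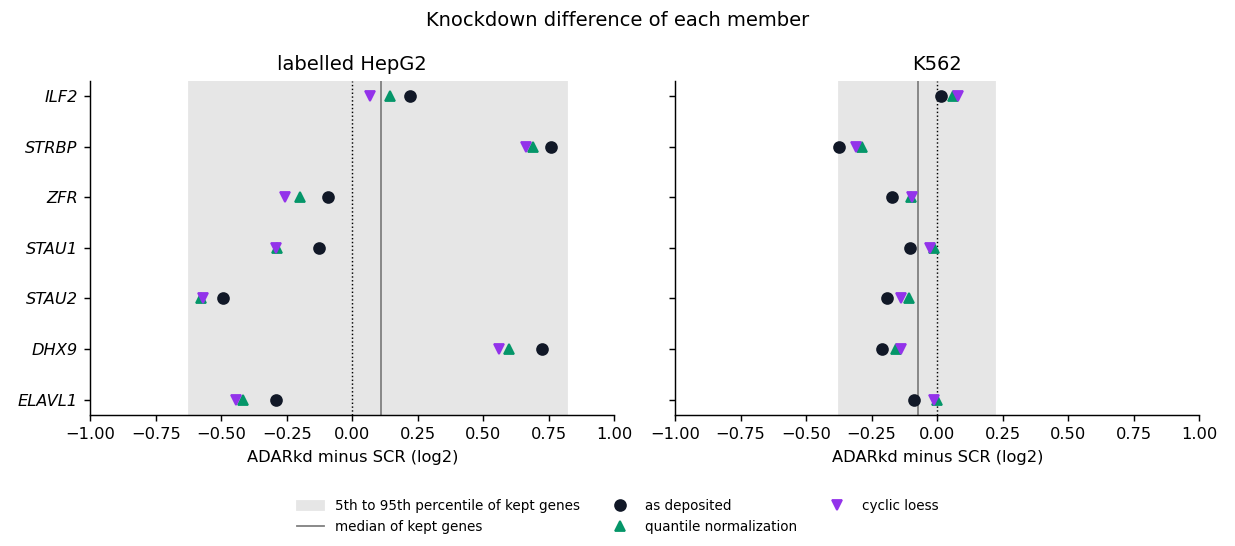
ADARkd minus SCR of each member (horizontal axis, log2) on the arrays labelled HepG2 and in K562; circles are the deposited scale, upward triangles quantile normalization and downward triangles cyclic loess, with the band from the 5th to the 95th percentile of kept genes in light grey and their median as a grey line. STRBP and DHX9 lie near the upper end of the band on the arrays labelled HepG2, STRBP lies at its lower edge in K562, and the rest are inside.

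A shared effect of the knockdown was then fitted over both lines, with line and arm as terms (limma, 4 arrays, 1 residual degree of freedom). None of the 7 members passed an adjusted p of 0.05, and neither did any of the 6204 genes kept in both lines (0%), ADAR included, at an adjusted p of 0.871. Without adjustment 179 genes lay under a p of 0.05, among them 0 members. STAU2 had the lowest limma p of the members, 0.125 unadjusted, with a shared difference of -0.34 ± 0.20 (SE) and lower values in ADARkd in 2 of 2 lines. The shared difference was 0.26 ± 0.25 for DHX9 and 0.19 ± 0.28 for STRBP, whose values pointed opposite ways in the lines, and -0.19 ± 0.21 for ELAVL1. It was 0.12 ± 0.16 for ILF2, -0.13 ± 0.19 for ZFR and -0.12 ± 0.20 for STAU1. Limma's adjusted p rounded to 1.0 for each member. A difference of the knockdown effect between the lines was not tested, since that model would use up all 4 arrays.

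The next comparison set K562 against the arrays labelled HepG2, to describe the levels of the members in each background. STRBP and ELAVL1 were higher in K562, and the other 5 did not pass the test. This is 2 of 7 members past a limma adjusted p of 0.05 and a 2-fold bound, both higher in K562, where 10.3% of 8028 genes kept in either line passed, and 0 of 7 higher on the arrays labelled HepG2, where 14.7% did. Since each line has 1 array per arm, the error rests on the model's 1 residual degree of freedom and on the spread assumed across genes.

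STRBP averaged 7.38 in K562 and 5.92 on the arrays labelled HepG2, a difference of 1.46 ± 0.29 (SE, 2 arrays per line) or 2.75-fold, with a limma adjusted p of 0.0064. Both K562 arrays, at 7.19 and 7.57, lay above both arrays labelled HepG2, at 6.30 and 5.54. Its line difference was 0.89 between the ADARkd arrays and 2.02 between the SCR arrays, so the first of these is under 2-fold. ELAVL1 averaged 8.43 in K562 and 7.39 on the arrays labelled HepG2, a difference of 1.04 ± 0.20 or 2.06-fold, with a limma adjusted p of 0.00609. Its K562 arrays, at 8.39 and 8.48, also lay above those labelled HepG2, at 7.25 and 7.54. Here the values were 1.14 between the ADARkd arrays and 0.94 between the SCR arrays. The ELAVL1 difference was 0.97 with log2(value + 16), which falls under the 2-fold bound and ends the call.

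DHX9 averaged 9.08 in K562 and 8.68 on the arrays labelled HepG2, a difference of 0.41 ± 0.26 with a limma adjusted p of 0.242. Between the SCR arrays the DHX9 line difference was 0.87, and between the ADARkd arrays -0.06. Only the SCR array labelled HepG2 stood apart for this gene, at 8.32 against 8.98 to 9.19 on the other 3 arrays. ZFR had the only negative difference beyond its error, -0.36 ± 0.19, with an adjusted p of 0.161. For ILF2 (0.07 ± 0.16), STAU1 (-0.05 ± 0.19) and STAU2 (0.05 ± 0.20) the difference was smaller than its error. The whole range over the 4 arrays was 0.16 for STAU1 and 0.22 for ILF2, the narrowest of the members, and 2.02 for STRBP, the widest.

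**Figure D3:**
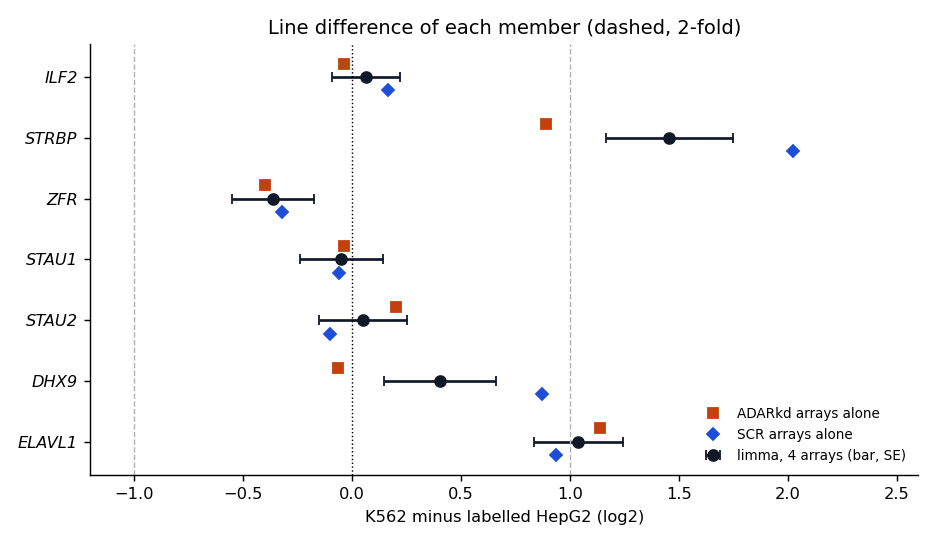
K562 minus labelled HepG2 for each member (horizontal axis, log2): black circles with bars are the limma estimate from 4 arrays with its SE, orange squares the ADARkd arrays alone and blue diamonds the SCR arrays alone, with dashed lines at 2-fold. STRBP and ELAVL1 lie to the right of the 2-fold line, and STRBP and DHX9 have their arm values farthest apart.

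Genes with the most similar profile were sought for each member among the 6204 genes kept in both lines, by the root mean square distance of the 4 log2 values after subtracting each gene's mean. DHX9 lay nearest to HAT1 (distance 0.0148), DNAJC2 (0.0166) and KIAA0586 (0.0243). For STRBP the nearest were ABRACL (0.0675), STK40 (0.0713) and FUCA1 (0.0998), farther away than the nearest genes of any other member. ELAVL1 had ACVR2B (0.02), TYW2 (0.0202) and LTBP4 (0.035) at its side. STAU2 was closest to OARD1, ADD3 and NSMCE2 (0.0272 to 0.0296) and STAU1 to WAC, XPOT and MPLKIP (0.018 to 0.0222). ILF2 lay by VWA1, EMG1 and SCAF1 (0.00533 to 0.0154), and ZFR by CHD9, HDAC7 and SEL1L (0.0104 to 0.0155). Over 4 arrays such likeness is a description only.

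The wider families of the members were described next, leaving out the members and ADAR. On the arrays labelled HepG2, 12.4% of all kept genes were at least 1.5-fold higher in ADARkd and 5.73% at least 1.5-fold lower. In K562, 1.03% were 1.5-fold apart. The counts of each list stand beside these shares. Among other proteins with a double-stranded RNA-binding domain, 13 of 14 measured were kept on the arrays labelled HepG2, with a median of 0.17 against 0.11 for all kept genes, and 0.04 after either rescaling. At least 1.5-fold higher in ADARkd was 1, CDKN2AIP (0.62), and 1 was lower, ADARB2 (-0.74), a family member of ADAR without known editing activity. DROSHA, the nuclease that crops primary microRNAs, differed by 0.42 there and TARBP2, a partner of Dicer, by 0.36. In K562, 12 were kept at a median of -0.02, which was 0.06 after quantile normalization and 0.02 after loess, and 0 passed 1.5-fold. The kinase EIF2AK2, which senses double-stranded RNA, differed by -0.29 in K562, DROSHA by -0.27, SON by 0.20 and NKRF by 0.16. Between the lines, SON and DGCR8, the partner of DROSHA, were higher in K562 (1.22 and 1.42), and ADARB1, the second catalytic deaminase, was higher on the arrays labelled HepG2 (K562 minus labelled HepG2 -2.40 ± 0.21, limma adjusted p = 0.000122).

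Of 13 measured DEAH-box RNA helicases beside DHX9, 11 were kept on the arrays labelled HepG2, 10 of them with a positive difference and 1 below 0, where 39.1% of all kept genes were below 0, and their median was 0.25. After quantile normalization 9 of the 11 were positive, with a median of 0.14, and after cyclic loess 9, with a median of 0.12. Of all kept genes 48.7% and 49.2% were then below 0. At least 1.5-fold higher in ADARkd were 2 of 11, where 12.4% of all kept genes were. They were DHX29, a helicase of translation initiation, at 7.10 against 6.0 (1.10, or 2.14-fold), and the splicing helicase DHX38 at 6.33 against 5.74 (0.59). DHX35 (0.47) and DHX34 (0.46) came next. In K562 the median over 11 was -0.03, and it was above 0 after quantile normalization (0.06) and loess (0.03). DHX36, which unwinds G-quadruplexes, had the lowest value there (-0.33), then DHX29 (-0.31), beside DHX33 (0.17) and DHX40 (-0.16). DHX37 passed as higher in K562 (1.20 ± 0.20, limma adjusted p = 0.00307), while DHX29 (0.90) and DHX33 (-0.50) did not pass.

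The list of AU-rich element and ELAV proteins, which holds ELAVL1, also takes in related mRNA-binding proteins. Its other genes had a median of -0.06 over 12 genes on the arrays labelled HepG2, which was -0.18 after quantile normalization and -0.20 after loess. The only one 1.5-fold apart was ZC3H12A, an RNase of inflammatory mRNAs, at 6.12 in ADARkd against 5.18 in SCR (0.94). It was kept through the ADARkd array alone, since its SCR level is under the filter level. ZFP36L1, which promotes decay of such mRNAs, differed by 0.55, HNRNPAB by 0.39 and PCBP2 by -0.41. In K562 the median over 12 genes was -0.13 (-0.05 and -0.08 after these rescalings), with 0 past 1.5-fold and with HNRNPAB at -0.23, TIAL1 at 0.23, ZFP36L1 at -0.21 and PCBP2 at -0.17. CELF2 was higher in K562 (3.83 ± 0.20) and ZFP36L1 was higher on the arrays labelled HepG2 (K562 minus labelled HepG2 -1.31 ± 0.24). The CELF2 mean on the arrays labelled HepG2, 3.70, was under the filter level. KHSRP, at 0.71, was under the 2-fold bound.

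Partners of the Staufen proteins in decay and transport granules had a median of -0.02 over 15 genes on the arrays labelled HepG2 and 0.02 over 16 in K562. After quantile normalization these medians were -0.15 and 0.10, and after loess -0.17 and 0.08. IGF2BP2, which binds and stabilises mRNAs, was the only one 1.5-fold apart on the arrays labelled HepG2, at 6.69 in ADARkd against 5.68 in SCR (1.01). The motor KIF5B differed by 0.45 there, FXR2 by 0.36 and the decay factor UPF2 by 0.24. In K562 KIF5A differed by 0.46, IGF2BP2 by -0.38, G3BP2 by -0.27 and PURB by -0.23. Higher in K562 by the limma test were KIF5A (4.2 ± 0.25) and IGF2BP1 (1.69 ± 0.19), and higher on the arrays labelled HepG2 was FMR1 (K562 minus labelled HepG2 -1.06 ± 0.19). The dimmer side of KIF5A, at 2.81, was under the filter level, so its size is uncertain. Of the listed targets of STAU1-mediated decay 1 was kept, the GTPase ARF1, which differed by 0.01 on the arrays labelled HepG2 and 0.06 in K562. Its value was -0.03 after quantile normalization and -0.14 after loess on the arrays labelled HepG2. Between the lines ARF1 differed by 0.47, under the 2-fold bound. Another listed target, IL7R, was measured but not kept. It stood at 5.16 in ADARkd and 2.92 in SCR on the arrays labelled HepG2. Both levels were under the filter level, so its difference of 2.24 is of uncertain size.

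Regulators of editing and proteins that bind inosine-containing RNA had a median of 0.12 over 12 genes on the arrays labelled HepG2, which was 0.02 after quantile normalization and 0.04 after loess. At least 1.5-fold higher in ADARkd were 2, the paraspeckle protein RBM14 (0.71) and the import receptor TNPO1 (0.60), where 12.4% of all kept genes were. At least 1.5-fold lower was 1, another paraspeckle protein, PSPC1, at 6.04 against 6.80 (-0.76), where 5.73% of all kept genes were. DAP3 differed by 0.54. In K562 the median over 12 was -0.08 (-0.02 and -0.01 after these rescalings), with 0 past 1.5-fold, and the values farthest from 0 were those of NONO (-0.30), XPO5 (-0.28), FXR1 (-0.22) and DAP3 (-0.16). FMR1 was the only gene of this list past the line test, while PSPC1 (0.88) and RBM14 (0.85) were under the 2-fold bound.

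**Figure D4:**
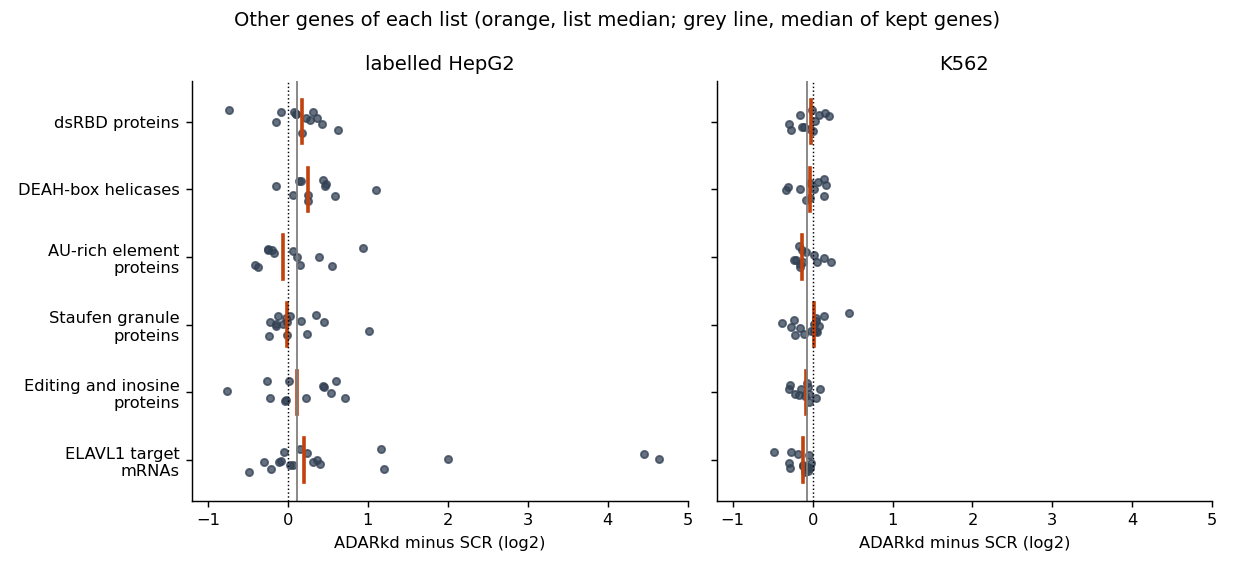
ADARkd minus SCR (horizontal axis, log2) of the kept genes of each list other than the members and ADAR, on the arrays labelled HepG2 and in K562; each point is a gene, the orange bar the list median and the grey line the median of all kept genes. Most points lie within 1 of 0, and those of CXCL8 and IL6 lie above 4 on the arrays labelled HepG2.

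Of the transcripts known as ELAVL1 targets 18 were kept on the arrays labelled HepG2, with a median of 0.19. At least 2-fold higher in ADARkd were 5, where 175 of all 7116 kept genes were, and at least 1.5-fold lower were 0, where 5.73% of kept genes were. CXCL8, a neutrophil chemokine, was at 9.0 in ADARkd and 4.36 in SCR, and the cytokine IL6 at 7.61 in ADARkd and 3.16 in SCR. Both SCR levels were under the filter level, so these genes were kept through the ADARkd array alone, had to differ, and have differences (4.64 and 4.46) of uncertain size. The count of 5 includes them. This list was chosen with earlier results of these data known. Its counts beside those of all kept genes, here and below, are therefore no test of ELAVL1 targets. The cyclooxygenase PTGS2 was at 9.38 in ADARkd and 7.37 in SCR (2.01), and the G1 cyclin CCND1 at 8.36 in ADARkd and 7.16 in SCR (1.20). The list's median was 0.07 after quantile normalization and 0.06 after loess.

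In K562, 13 of these targets were kept, and 13 of 13 had a difference below 0, from -0.49 to -0.02, where 66.7% of all kept genes did. Their median was -0.12, against -0.07 for all kept genes. The count below 0 was 8 of 13 after quantile normalization and 8 of 13 after loess, where 50.3% and 54.9% of all kept genes were below 0. VEGFA, the angiogenic growth factor, was lowest at 7.16 in ADARkd and 7.65 in SCR (-0.49), and it differed by -0.48 on the arrays labelled HepG2 as well. CTNNB1 (-0.30), EIF4E (-0.28) and CDKN1A (-0.27) followed, the last with an ADARkd level of 5.20, under the filter level. Between the lines, 2 of 19 tested targets were higher in K562, where 10.3% of all genes tested were, and 8 were higher on the arrays labelled HepG2, where 14.7% were. The largest were PTGS2 (K562 minus labelled HepG2 -4.82 ± 0.39), HIF1A (-3.56 ± 0.19) and CCND1 (-2.74 ± 0.32). The K562 means of PTGS2 (3.56) and CCND1 (5.02) were under the filter level, so both entered through the arrays labelled HepG2, and their sizes are uncertain. The 8 include these genes, so that count rests partly on the filter. CDKN1B, FOS, IL6 and CXCL8 were likewise kept on the arrays labelled HepG2 alone, and EIF4E in K562 alone. Each of them was tested only through the line where it was higher. The same rule applied to all genes tested.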

How the data were processed

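The authors deposited 1 linear intensity for every transcript cluster and array. Per the submitters' processing notes, RMA was used and hg18 was the build; versions and further steps are not given in the sources used here. Of 17881 clusters 14432 had 1 symbol in the platform annotation, 2408 several and 1041 none; only the first kind was named. Symbols were matched by Entrez number to RefSeq (14404 found, 0 changed). A gene with several clusters took the brightest. The design had assumed log2 values; log2 was taken here with no offset, leaving the tests as designed. Detection over background was not analysed here.

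Differences within a line carry no p-value. Models were fitted with limma 3.58.1 in R 4.3.3 (eBayes with trend; two-sided tests; Benjamini-Hochberg adjustment) over all kept genes and tested on simulated data. Line and arm were the terms, so the 2 arms are paired within each line; genes kept in both lines entered the shared effect, genes kept in either the line comparison. The labels name no separate cultures, so p-values measure only the spread between these arrays. The members and gene lists were chosen with earlier results of these data known. From each list the genes named are the 4 with the largest difference per line and the 3 with the largest line difference. Figures used matplotlib 3.10.9.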

Additional observations from a re-analysis of the deposited data

Results flagged for a closer look

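Of 41 named genes kept in both lines, 8 had ADARkd minus SCR differences of opposite sign in the lines, each at least 0.2 in size. Of the 6204 genes kept in both lines 624 (10.1%) had the same, but most named genes were picked for a large difference in a line, which raises their count. The difference between the lines was not tested for any of them, since 1 array per group leaves no error to test it with. In the fitted models this same difference between the lines serves as the error. The gap, given as the difference on the arrays labelled HepG2 minus that in K562, was 1.13 for STRBP (0.76 and -0.38) and 0.93 for DHX9 (0.72 and -0.21). It was 1.41 for DHX29 (1.10 and -0.31), 1.40 for IGF2BP2 (1.01 and -0.38), 0.76 for ZFP36L1 (0.55 and -0.21), 0.69 for DROSHA (0.42 and -0.27) and 0.62 for HNRNPAB (0.39 and -0.23). TIAL1 ran the other way, with a gap of -0.48 (-0.26 and 0.23).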

How the results depend on the processing

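The count of genes at least 2-fold apart on the arrays labelled HepG2 was 287, and it was 186 with log2(value + 16) and 116 when genes had to reach the 75th percentile. In K562 it was 11, against 7 with log2(value + 16), 30 without any filter and 1 at the 75th percentile. In the line comparison 1159 genes passed with the stricter filter, against 2014. The cause was not tested, beyond the number of genes the filters leave. STAU1 had a line difference of 0.0199 after quantile normalization, against -0.05, and passed in neither setting. Between the ADARkd arrays alone the line difference was 0.89 for STRBP, -0.06 for DHX9 and -0.04 for ILF2, and between the SCR arrays alone it was 2.02 for STRBP, 0.87 for DHX9 and -0.10 for STAU2. With the pairing by cell line left out (no replicate block), 0 genes passed for the shared effect, as with the block. Of 212 values recomputed under the alternatives, 200 were taken as the same. Tests had to keep their direction and side of the threshold, differences to move by less than 0.194, and counts to stay within a ratio of 1.5. The 0.194 is the SD of differences over kept genes in K562, which stands in for a replicate spread. Many of the 212 could hardly move. Each member has 1 transcript cluster, so averaging clusters left its differences unchanged. Filters, trend and block do not alter its estimates either. The 200 is therefore no measure of robustness. The number of arrays limits every value.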
